A study of Rattus norvegicus with 12 samples.

Results

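Negative feedback genes of the ERK branch of the MAP kinase pathway were described in H9C2 cells, a line of rat heart-derived myoblasts. The 10 genes were chosen by name, as known members of this feedback, with earlier results of these data known. They were the dual-specificity phosphatase genes Dusp1, Dusp4, Dusp5 and Dusp6, the pseudokinase gene Trib1, the Sprouty genes Spry1, Spry2 and Spry4, and the Spred genes Spred1 and Spred2. All 10 were found, once each, among 16074 gene IDs, and all 10 were among the 11398 genes that passed a filter on low counts. Messenger RNA was sequenced in 3 groups of 4 libraries. Control cells, labelled wild type, were kept in normoxia with neither vector nor hypoxia. Cells of the H/R group (hypoxia/reoxygenation), also labelled wild type, carried an empty lentivirus and spent 8 h in 1% oxygen and 2 h back in normoxia. Cells of the LITAF group, labelled LITAF overexpression, carried a lentivirus for LITAF, an endosomal and lysosomal membrane protein, and went through the same H/R. The labels name no promoter of the vector and give 1 batch for all libraries. Since control cells had no vector, effects of the vector and of H/R cannot be told apart against control.

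Growth factors bind receptor tyrosine kinases and switch on the small GTPase RAS, which passes the signal through the kinases RAF and MEK to ERK. Active ERK enters the nucleus and turns on immediate early genes, and with them the genes that later shut the signal off. Dual-specificity phosphatases remove phosphate from ERK, Sprouty and Spred proteins act upstream at the level of RAS and RAF, and Trib1 is a scaffold for protein degradation that also binds MEK. The RNA of these genes is therefore widely read as a trace of recent MAP kinase activity, although other pathways, such as p38, JNK and cAMP signalling, also drive several of them.

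Promoter windows of 250 bases before the transcript start and 50 after it, from RefSeq on GRCr8, were matched for 8 of the 10 genes. There were 9 windows, with more than 1 for Spry2. Dusp4 and Trib1 had no entry. Those of 3 phosphatase genes whose RNA moved in different ways are shown up to the annotated gene start, since they also differ in their matches to motifs for transcription factors at the end of MAP kinase and cAMP signalling. All are on the plus strand, written 5′ to 3′, and capitals mark CArG boxes, the sites of serum response factor, and TGACGT, the core of the cAMP response element, searched on both strands. The Dusp6 stretch is shorter because the annotated gene start lies earlier in its window, and it held neither motif. The stretches lie at chr1:262543524-262543773 (Dusp5), chr10:17184603-17184852 (Dusp1) and chr7:35979354-35979501 (Dusp6).
Dusp5: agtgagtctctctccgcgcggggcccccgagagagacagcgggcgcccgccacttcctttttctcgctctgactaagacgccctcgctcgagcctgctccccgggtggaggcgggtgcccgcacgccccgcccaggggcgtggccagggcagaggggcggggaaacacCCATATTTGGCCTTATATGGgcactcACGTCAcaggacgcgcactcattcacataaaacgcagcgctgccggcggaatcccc
Dusp1: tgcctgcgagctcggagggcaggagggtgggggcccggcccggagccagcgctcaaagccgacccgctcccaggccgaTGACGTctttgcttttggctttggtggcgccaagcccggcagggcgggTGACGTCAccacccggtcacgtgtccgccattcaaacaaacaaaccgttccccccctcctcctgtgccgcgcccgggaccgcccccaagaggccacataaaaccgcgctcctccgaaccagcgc
Dusp6: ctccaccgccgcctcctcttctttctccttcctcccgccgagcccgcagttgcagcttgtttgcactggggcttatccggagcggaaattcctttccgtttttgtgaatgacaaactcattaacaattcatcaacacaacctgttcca

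The Dusp5 window held 2 CArG boxes side by side, CCATATTTGG and CCTTATATGG, which begin 82 and 72 bases before the gene start. Of 33469 promoter windows in the table, 548 (1.64%) held a CArG box and 7 (0.0209%) held 2 or more. Dusp5 was the only one of the 8 genes with a match. The Dusp1 window held TGACGT 3 times over both strands, of which 2 matches overlap in the full palindrome TGACGTCA, and Dusp5 and Spred2 held it once each. This 6-base core occurred in 7.94% of all windows and TGACGTCA in 1.83%. The AP-1 site TGANTCA, found in 7.33% of all windows, was in none of the windows of the 8 genes. The ETS core CCGGAA, found in 15% of all windows, was in those of Dusp5 (after the gene start) and Spry4. It was also in 1 window of Spry2 but not in its other window. A match here is a run of letters and not a measured binding site, and any link between these motifs and the RNA levels was not tested.

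Total counts were 16.9 to 20.7 M reads per library, with the most in the control group. The Litaf gene itself stood at 456 to 491 CPM (counts per M reads, scaled by TMM) in control, 549 to 619 CPM in the H/R group and 2008 to 2691 CPM in the LITAF group. Of 8 markers of myoblasts and smooth muscle-like cells, 7 were above 1 CPM in each group, while Myf5 was at or near 0. Of 11 cardiomyocyte markers in the table, 3 were above 1 CPM (Tnnt2, Nkx2-5 and Gata4), and Myh6, Myh7, Myl2, Nppa, Nppb, Tnni3, Actn2 and Ryr2 were not. Defining genes of mature heart muscle other than Tnnt2 were thus near 0 in these cells. The summed level of the cardiomyocyte list was 208 to 447 CPM in control, 80.3 to 110 CPM in the H/R group and 164 to 222 CPM in the LITAF group, mostly from Tnnt2. Markers of endothelial, blood and epithelial cells had means below 1 CPM in each group.

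LITAF overexpression under H/R went with higher RNA of most of these feedback genes. Against the H/R group, 6 of 10 rose (Dusp5, Dusp6, Trib1, Spry1, Dusp1 and Spry2), none was called lower, and Spry4, Dusp4, Spred1 and Spred2, 4 in all, missed the threshold. The test was edgeR's quasi-likelihood test with p adjusted over all 11398 genes, and 4.88% of those genes were called, 3.73% higher and 1.15% lower. DESeq2 also called 6 higher and none lower, where it called 902 of all genes, 69.5% of these higher. An unadjusted p under 0.05 in edgeR gave the same 6 and none, and the share of all genes at that limit is not given here. The rises ran from 1.44-fold in Spry2 to 2.83-fold in Dusp5. The median log2 change of the 10 genes was 0.59, beside -0.01 over all genes tested. Library values in CPM were fully separate for 7 of the 10, all higher, against 18.9% of all genes (10.6% higher and 8.30% lower). Of all calls in this comparison 76.4% were higher, a share of 66.5% with upper-quartile scaling and 61.0% with library totals, and 6 of the 10 genes passed under both. Without LITAF library 1 the calls over all genes became 1285, of which 53.9% were higher, and 6 of the 10 genes still passed. In bulk RNA, fewer cells that express a gene and less RNA per cell cannot be told apart. The cardiomyocyte marker sum moved the same way between these groups, through Tnnt2 (log2 1.32). The other cardiomyocyte markers tested, Gata4 and Nkx2-5, did not pass (log2 -0.11 and 0.05). The sum therefore reflects 1 gene, and its part in the result was not tested.

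**Figure D1:**
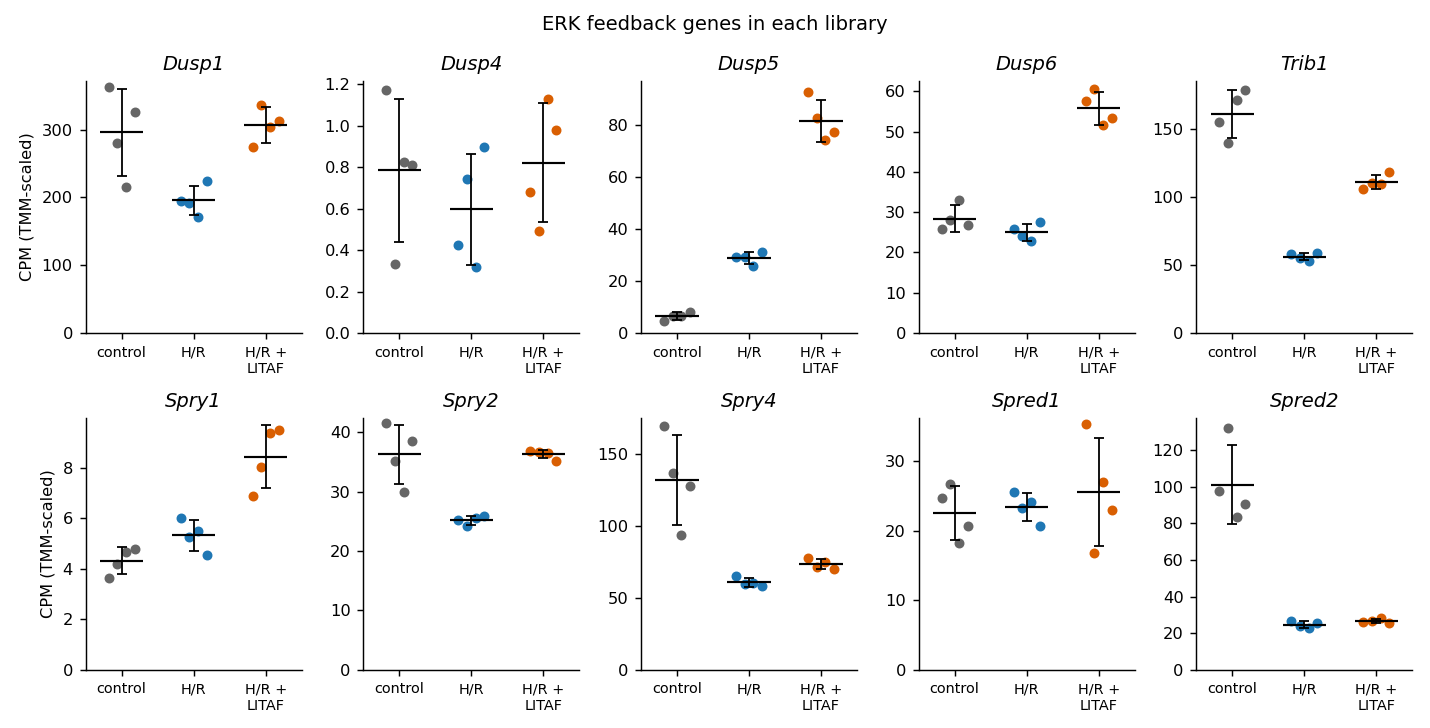
Level of each of the 10 genes in every library, in CPM after TMM scaling on a linear axis from 0, by group (control, H/R, H/R + LITAF). Points are libraries, in the order of their replicate numbers, and bars are mean ± SD of 4. Dusp5 climbed from control to H/R to LITAF, Trib1 and Spry2 dropped with H/R and were higher again with LITAF, and Spred2 was low in both H/R groups.

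Dusp5 codes for a nuclear phosphatase that is specific for ERK. Its level in the 4 control libraries was 4.54, 6.56, 6.48 and 8.14 CPM. It was 29.4, 29.1, 25.8 and 31.1 CPM in the H/R group and 92.5, 82.5, 74.2 and 77.4 CPM in the LITAF group. No 2 groups overlapped, and the lowest LITAF library held more than every H/R library. LITAF was 2.83-fold above H/R (log2 1.50 ± 0.14, SE, n = 4 each), adjusted p = 5.65e-06 by edgeR's test. Dusp5 also rose with H/R over control, 4.49-fold (log2 2.17 ± 0.15, adjusted p = 3.11e-09 by edgeR's test). From control to LITAF the levels were 12.7-fold apart.

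Dusp6 codes for the cytoplasmic ERK phosphatase, one of the most direct transcriptional readouts of ERK. Control libraries stood at 25.8, 28.0, 33.1 and 26.7 CPM and H/R libraries at 25.8, 24.0, 22.7 and 27.5 CPM. LITAF libraries stood at 57.5, 60.6, 51.6 and 53.4 CPM. Control and H/R overlapped, and each LITAF library was above each of the other 8. The rise over H/R was 2.23-fold (log2 1.16 ± 0.11, adjusted p = 7.19e-06 by edgeR's test). H/R against control gave log2 -0.18 ± 0.11, with a 95% interval from the fit of -0.42 to 0.05, and did not pass.

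Dusp1 codes for a nuclear phosphatase that acts on p38 and JNK more than on ERK and answers to stress and cAMP. Its level was 362, 280, 215 and 326 CPM in control and 195, 192, 171 and 224 CPM in the H/R group. In the LITAF group it was 274, 337, 303 and 313 CPM. The LITAF libraries lay above all H/R libraries and within the range of control. The rise over H/R was 1.57-fold (log2 0.65 ± 0.14, adjusted p = 0.0130 by edgeR), and without H/R library 3 it did not pass (adjusted p = 0.0625, also edgeR). The fall from control to H/R was 1.51-fold (log2 -0.60 ± 0.14, adjusted p = 0.00135 by edgeR's test), although control library 3 overlapped H/R library 4.

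Dusp4, which codes for another nuclear phosphatase of MAP kinases, was close to the limit of detection. Its counts were 6 to 23 reads in control, 6 to 16 in the H/R group and 9 to 21 in the LITAF group. The groups overlapped in every comparison and no difference was detectable at this depth, with a 95% interval of log2 -0.40 to 1.33 for LITAF against H/R.

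Trib1 fell with H/R and was at an intermediate level with LITAF. It stood at 155, 139, 171 and 179 CPM in control, 57.6, 55.3, 52.7 and 58.6 CPM in the H/R group, and 106, 110, 110 and 118 CPM in the LITAF group. The groups did not overlap, and the LITAF libraries lay between the other 2 groups. With H/R it fell 2.87-fold from control (log2 -1.52 ± 0.10, adjusted p = 1.74e-09 by edgeR). LITAF was 1.98-fold above H/R (log2 0.99 ± 0.10, adjusted p = 1.32e-05 by edgeR's test). It remained 1.45-fold below control (log2 -0.54 ± 0.10, adjusted p = 0.000149 by edgeR's test).

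Sprouty proteins are membrane-associated inhibitors that ERK signalling induces. Spry2 was 41.6, 35.2, 30.0 and 38.5 CPM in control, 25.2, 24.2, 25.5 and 26.0 CPM in the H/R group, and 36.9, 36.6, 36.6 and 35.2 CPM in the LITAF group. All H/R libraries lay below all others, while LITAF libraries lay within the range of control. The fall with H/R was 1.44-fold (log2 -0.53 ± 0.11, adjusted p = 0.000404 by edgeR), and the rise with LITAF was 1.44-fold (log2 0.53 ± 0.11, adjusted p = 0.00910 by edgeR's test). LITAF against control gave log2 0.00 ± 0.11, with a 95% interval of -0.22 to 0.22.

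Spry1, another Sprouty gene, was measured with fewer reads, 71 to 174 per library. Control libraries stood at 3.62, 4.17, 4.68 and 4.80 CPM and H/R libraries at 6.02, 5.25, 5.49 and 4.54 CPM. LITAF libraries stood at 6.88, 8.03, 9.36 and 9.50 CPM. The LITAF libraries were above all others, and control and H/R overlapped. The rise over H/R was 1.58-fold (log2 0.66 ± 0.15, adjusted p = 0.0168 by edgeR's test). This call was lost in 5 fits with a library left out, with adjusted p by edgeR of 0.0565, 0.0554 and 0.0556 without H/R libraries 2, 3 and 4 and 0.0644 and 0.0726 without LITAF libraries 3 and 4. H/R against control gave log2 0.30 ± 0.15 and did not pass (adjusted p = 0.0972 by edgeR's test). In the fit of these 2 groups with the replicate number as a block, chosen after seeing the data, it passed at adjusted p = 0.0442 (edgeR). It also passed with upper-quartile scaling and with library totals, at adjusted p = 0.0297 and 0.0226 (edgeR).

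Spry4 fell with H/R and stayed low with LITAF. It was 170, 137, 94.0 and 127 CPM in control, 65.5, 59.7, 60.5 and 58.4 CPM in the H/R group, and 77.8, 71.3, 74.9 and 69.97 CPM in the LITAF group. Control lay above both other groups in every library. H/R was 2.16-fold below control (log2 -1.11 ± 0.14, adjusted p = 3.06e-06 by edgeR), and LITAF 1.80-fold below control (log2 -0.85 ± 0.14, adjusted p = 5.06e-05). Each LITAF library was above each H/R library, at log2 0.27 ± 0.14, a difference that did not pass with the spread of all 12 libraries (adjusted p = 0.291 by edgeR's test). In the fit of these 2 groups alone it passed, at adjusted p = 0.0341 (edgeR).

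The Spred genes, whose proteins are related to Sprouty and bring the RAS inhibitor neurofibromin to the membrane, showed no call between LITAF and H/R. Spred2 was 97.7, 132, 83.7 and 90.8 CPM in control, 26.9, 23.8, 22.6 and 25.5 CPM in the H/R group, and 25.9, 26.4, 28.5 and 25.7 CPM in the LITAF group. H/R was 4.09-fold below control (log2 -2.03 ± 0.13, adjusted p = 1.76e-09 by edgeR's test), the largest fall among the 10. LITAF against H/R gave log2 0.11 ± 0.13, with a 95% interval of -0.17 to 0.39. Spred1 was 18.2 to 26.7 CPM in control and 20.7 to 25.6 CPM in the H/R group. In LITAF libraries 1 to 4 it was 35.4, 16.8, 27.0 and 23.0 CPM, a coefficient of variation of 30.5% against 8.78% in the H/R group. Spred1 differed in no comparison (LITAF against H/R log2 0.12 ± 0.18, 95% interval -0.26 to 0.51). Without LITAF library 1 its sign turned, to log2 -0.06.

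**Figure D2:**
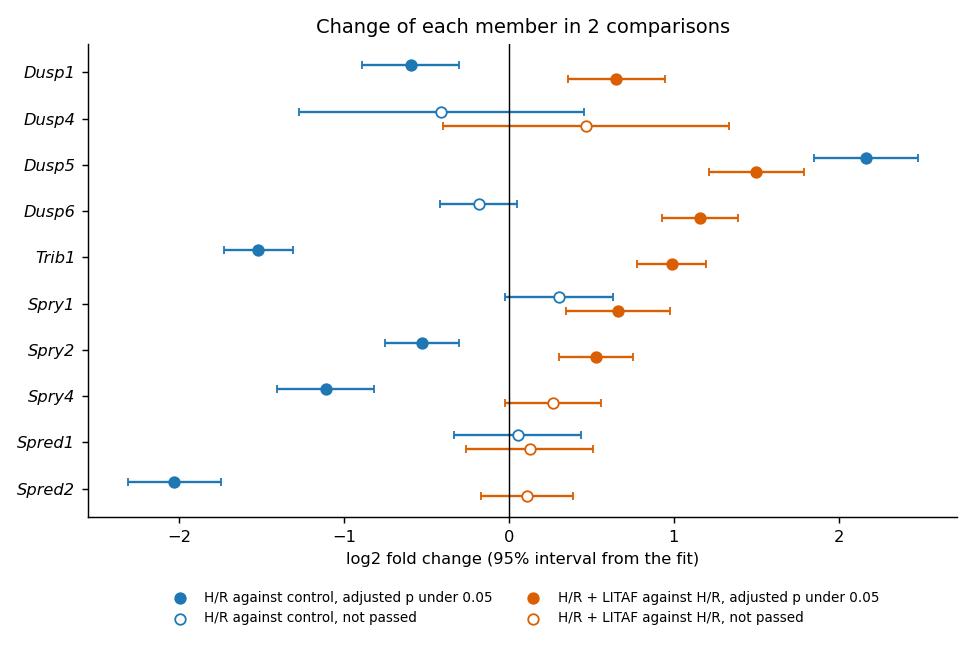
Log2 fold change of each gene for H/R against control (blue) and H/R + LITAF against H/R (orange), with 95% intervals from the edgeR fit of all 12 libraries; filled points passed at an adjusted p under 0.05. Both comparisons use the H/R libraries. Dusp5 is to the right in both, while Trib1, Dusp1 and Spry2 are to the left in one and to the right in the other.

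With H/R over control, 1 of the 10 genes rose (Dusp5), 5 fell (Spred2, Trib1, Spry4, Dusp1 and Spry2) and 4 did not pass (Dusp6, Spry1, Dusp4 and Spred1), with Spry1 passing as a rise under the other scalings given above. Over all genes, 31.8% were called higher and 31.8% lower, 63.6% in all. A total of 6 calls in 10 is therefore near the background of this comparison. Values against control carry a limit, since 2.79 to 3.34% of the deposited values were not whole in control and 11.1 to 12.3% in the other groups, and any difference in how they were made cannot be told apart from H/R. The control cells also stood apart in Myog, a regulator of muscle differentiation, at 1257 to 5730 CPM against 4.99 to 19.6 CPM in the H/R group. The other myoblast and smooth muscle markers moved both ways with H/R: Des (3.50-fold), Vim (3.04-fold), Tagln (1.73-fold) and Acta2 (1.50-fold) were higher, and Myod1 (2.93-fold) and Cdh15 (log2 -0.26) were lower. Summed levels of the 8 markers, which hide these opposite moves, ranged from 7315 to 12359 CPM in control, 9726 to 10002 CPM in the H/R group and 8006 to 11069 CPM in the LITAF group. The part of these markers in the results was not tested. Library totals or upper-quartile scaling shifted the median of all genes by log2 0.13 and 0.12 here, and each of the 6 calls kept its direction under both.

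For LITAF against control, 3 genes were higher (Dusp5, Dusp6 and Spry1) and 3 were lower (Spred2, Spry4 and Trib1). The share called over all genes was 64.6%, with 32.0% higher and 32.6% lower, so this count too is near the background. Dusp6 was 1.96-fold and Spry1 1.95-fold above control. Dusp1 stood at log2 0.05 ± 0.14 from control, with a 95% interval of -0.24 to 0.35. This comparison shares its libraries with the other 2, so its values are not independent of theirs.

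Members of 1 family did not move in step. Ratios between 2 members in the same library do not depend on scaling, and 7 pairs were compared over the 3 comparisons by a two-sided exact permutation test, 21 tests in all. Of these, 14 reached an exact p = 0.0286, the smallest that 4 against 4 libraries can give, with adjusted p = 0.0429 over the 21. That leaves little room, and none of the 21 passed without H/R library 1 or without LITAF library 2, 3 or 4. The test did not keep pairs of libraries together. If control and H/R libraries are paired by number, 4 pairs cannot go below an exact permutation p = 0.125, so no ratio between these groups could pass. Dusp5 gained on Dusp6 in both steps, by log2 2.37 from control to H/R (5.17-fold) and by log2 0.34 from H/R to LITAF (1.27-fold). Both were at exact permutation adjusted p = 0.0429, the first from a test that did not keep pairs together. Dusp1 lost against Dusp6 from H/R to LITAF by log2 -0.51 (exact permutation, adjusted p = 0.0429), with no overlap of the 4 and 4 libraries. From control to H/R that ratio overlapped (log2 -0.40, exact permutation adjusted p = 0.212).

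Among Sprouty genes, Spry4 lost against Spry2 in both steps, by log2 -0.57 from control to H/R and -0.26 from H/R to LITAF (exact permutation, adjusted p = 0.0429 each). Spry1 gained on Spry2 by log2 0.82 from control to H/R at the same adjusted p of the exact permutation test. Between LITAF and H/R the Spry1 to Spry2 ratio differed by log2 0.13 with overlapping libraries (exact permutation adjusted p = 0.474). The Spred1 to Spred2 ratio was 4.22-fold higher in H/R than in control (log2 2.08, exact permutation adjusted p = 0.0429) and differed by log2 -0.03 between LITAF and H/R (exact permutation adjusted p = 0.857). Ratios of Dusp4 to Dusp6 overlapped in all 3 comparisons. Here too, the p-values from control to H/R are of the test that did not keep pairs together, and none would pass if the libraries are paired.

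**Figure D3:**
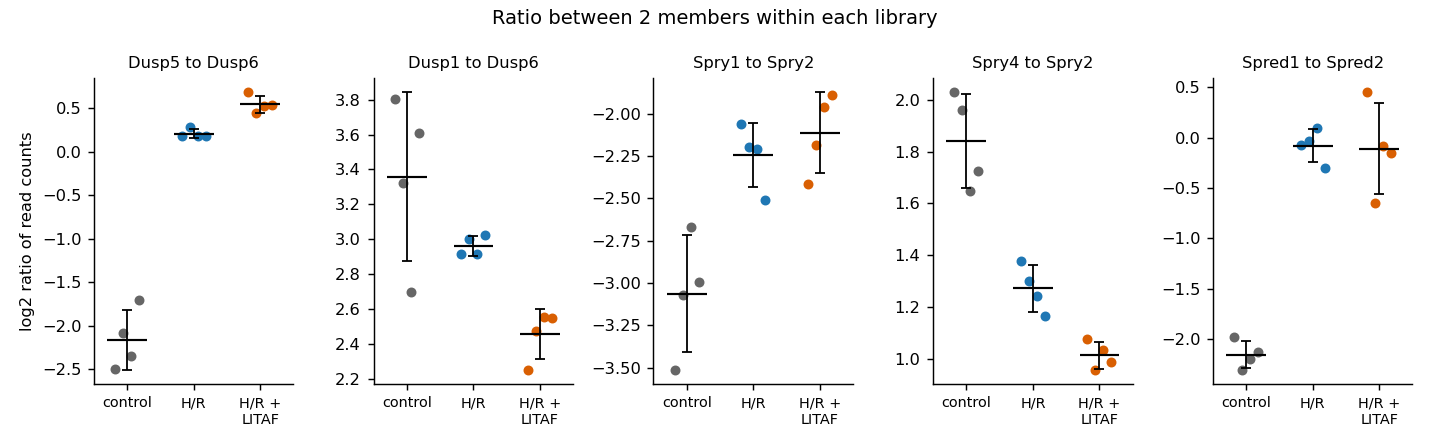
Log2 ratio of the read counts of 2 genes within each library, with 0.5 added to each count, for 5 of the 7 pairs; points are libraries and bars are mean ± SD of 4. Only shifts between groups are read, since transcript lengths differ between genes. Dusp5 to Dusp6 moves up and Spry4 to Spry2 moves down in both steps, and Spred1 to Spred2 separates control from both H/R groups.

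The other genes of the pathway give the setting. Of 18 further feedback genes tested, 2 rose with LITAF over H/R and none fell, with a median of log2 0.18, beside 3.73% of all genes called higher, 1.15% lower and a median of -0.01. Errfi1, an inhibitor of the EGF receptor, went from 166 ± 5.88 to 277 ± 7.07 CPM (SD, n = 4), log2 0.73 ± 0.11, adjusted p = 0.00104 by edgeR's test. Lrig1, which promotes degradation of the same receptor, rose 1.28-fold (log2 0.35 ± 0.10, adjusted p = 0.0472). The phosphatase gene Dusp3 and the scaffold gene of protein phosphatase 2A, Ppp2r1a, did not pass, at log2 0.15 and 0.03. From control to H/R, 8 of the 18 fell and 1 rose, which is not above the 63.6% called over all genes. Those that fell included Errfi1 (2.43-fold), Lrig1 (2.93-fold) and Trib2 (3.08-fold), a paralog of Trib1. The gene that rose was another paralog, Trib3, a target of the stress factor ATF4, from 25.3 ± 3.33 to 148 ± 19.5 CPM.

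Of 23 ERK target genes tested, 14 rose with LITAF over H/R and none fell, with a median of log2 0.73, against the same 3.73% higher and 1.15% lower over all genes. The gene with the smallest p was Egr1, an immediate early transcription factor, at 228 to 293 CPM in the H/R group and 928 to 1017 CPM in the LITAF group. It had fallen with H/R from 992 to 1301 CPM in control. The AP-1 genes Fos, Junb and Fosb also rose with LITAF, 2.72-fold, 2.27-fold and 2.14-fold (adjusted p = 1.82e-06, 5.65e-06 and 5.65e-06 by edgeR's test). The cyclin gene Ccnd1 and the receptor gene Epha2 did not pass, at log2 0.26 and 0.12. From control to H/R more of these 23 targets rose than fell, with 15 higher and 6 lower, where 31.8% of all genes were called each way. Their median was log2 0.55, beside 0.01 over all genes tested. Among the rises were Maff (3.57-fold), Fosb (3.36-fold) and the protease receptor gene Plaur (2.82-fold). Fosl1, also in this list, was left out because the table held 2 rows for it with different control values.

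Among growth factor ligands 2 of 13 tested rose with LITAF over H/R, a comparison in which 3.73% of all genes were called higher. They were Igf2, from 58.9 ± 3.39 to 137 ± 3.63 CPM (SD, n = 4; log2 1.22 ± 0.12, adjusted p = 8.46e-06 by edgeR), and Pdgfb (2.01-fold). Ligands of the EGF receptor missed the threshold, Hbegf at log2 0.45 (edgeR's adjusted p = 0.0501) and Tgfa at log2 0.34. The gene of that receptor, Egfr, had few reads, with means of 0.783, 1.01 and 1.66 CPM in control, H/R and LITAF. Of 11 receptors tested 2 rose, Fgfr2 (1.40-fold) and Pdgfrb (1.34-fold), while Axl and Igf1r did not pass (log2 -0.01 and 0.19). Of 20 genes of the cascade from adaptors to ERK, 1 rose, the adaptor gene Shc1 (1.31-fold), and Ptpn11, which codes for the phosphatase SHP2, did not pass at log2 0.24 ± 0.10. None of 11 genes of the JNK and p38 cascade passed by edgeR's or DESeq2's adjusted p, and 1 of them, Map2k3, was under an unadjusted 0.05 in edgeR, at log2 0.22.

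The shares called in the upstream lists between H/R and control are to be read against the 63.6% called over all genes, and the cascade, JNK and p38, and receptor counts are near it. Among the 13 ligands tested 5 rose and 6 fell, a count above that share. Igf2 was 7.15-fold lower, Pdgfc 2.22-fold lower and Pdgfa 2.43-fold higher. Fgf21 was 31.2-fold higher, from a mean near 0 (0.106 CPM) to 3.51 CPM. Of receptors 6 of 11 fell and none rose, among them Fgfr3 (2.14-fold) and Met (1.57-fold). In the cascade 7 rose and 6 fell, with the MEK gene Map2k1 3.37-fold and Hras 1.92-fold higher and the scaffold gene Ksr1 1.84-fold lower. In the JNK and p38 list 6 fell and 1 rose, and Map2k6, a kinase that activates p38, was 4.79-fold lower. RNA levels of these kinases say nothing of their phosphorylation, which was not measured.

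**Figure D4:**
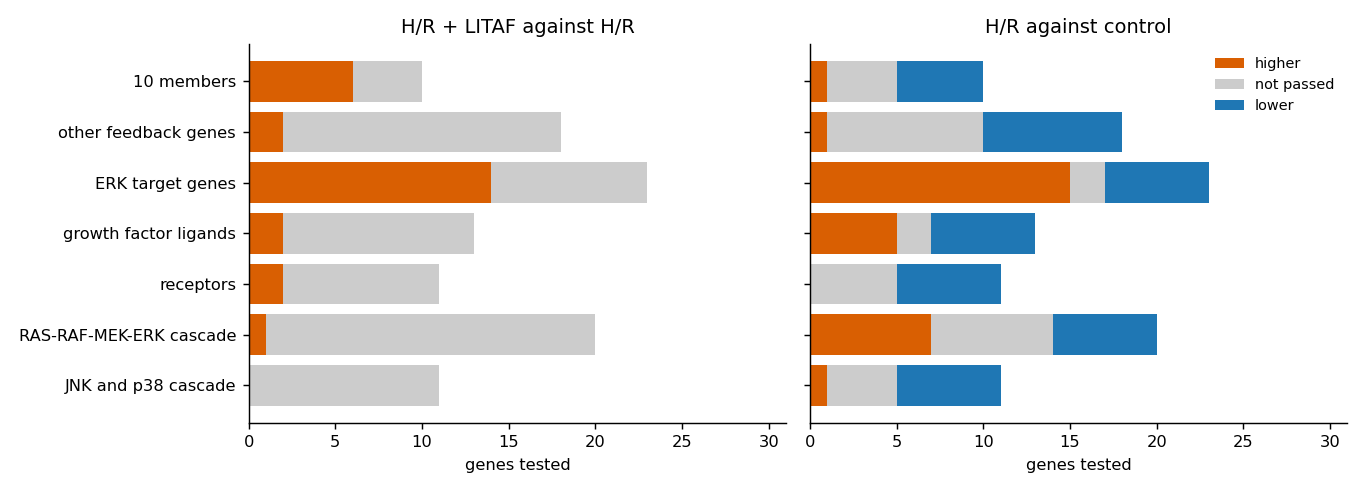
Number of genes tested in each list that were called higher (orange), lower (blue) or did not pass (grey) at an adjusted p under 0.05, for H/R + LITAF against H/R (left) and H/R against control (right). With LITAF, calls are all higher, 6 of 10 among the feedback genes described here and 14 of 23 among ERK targets, against 1 of 20 in the cascade; with H/R, calls go both ways in every list but the receptors.

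The genes whose pattern was nearest to that of Dusp6 were found by the root mean square difference of log2 CPM profiles over the 12 libraries, each centred on its mean. They were Arc (0.23), Myo7a (0.24), Egr2 (0.25), Txnip (0.26) and Ccn1 (0.26). Arc, an immediate early gene, had means of 10.6, 7.85 and 21.9 CPM in control, H/R and LITAF, and Egr2 had 16.3, 11.4 and 29.0 CPM. Nearest to Spry4 were Frmd4a (0.11), Lrrk1 (0.12), Focad (0.13), Eogt (0.13) and Wdr62 (0.14). Frmd4a had means of 53.9, 25.6 and 30.9 CPM in the same order.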

How the data were processed

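Gene expression was measured by RNA sequencing of polyadenylated RNA in 12 libraries, 4 per group; groups and replicate numbers came from the sample titles. The authors deposited raw read counts per gene with Ensembl rat gene IDs, per the file headers. Some deposited values were not whole, so they were taken as estimated counts (expected counts). The submitters' processing notes name DESeq2 and edgeR, with no role. Which aligner, counter, build, annotation and strand setting were used is not given in the sources used here, so overlapping genes and close paralogs are uncertain. Labels call the replicates biological but name no separate cultures, so p-values measure only the spread between these libraries.

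Of 16074 gene IDs, 128 had more than 1 row. Identical rows were kept once (56 IDs) and differing rows were left out (72 IDs, with Fosl1 among them). Counts were rounded. After filterByExpr by group, 11398 genes were scaled by TMM and fitted over all 12 libraries with a mean per group (edgeR 4.0.16, limma 3.58.1, R 4.3.3; glmQLFit, robust). Tests were two-sided quasi-likelihood F-tests with Benjamini-Hochberg adjustment over all genes and a threshold of 0.05. Standard errors are the absolute log2 difference over √F. The procedure was tested on simulated data with the same spread for all genes and no shared deviation of same-numbered libraries. These features of the real data were therefore not covered. Depth was 16.9 to 20.7 M reads, and genes with few reads carry the largest counting error.

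Same-numbered libraries of control and H/R deviated together (correlation across genes 0.31 to 0.56, other numbers -0.30 to -0.03). The main fit and the ratio tests did not use this pairing, and fits with a replicate block were run beside the main fit. The pairing comes from the data, as the labels do not state it.

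The 10 genes, the other lists and the tests were chosen with earlier results of these data known. Named genes from the other lists were up to 4 called genes with the smallest p and up to 2 of the highest level that did not pass, in each of the first 2 comparisons (some are left to the counts). Myog, Etv5, Egfr, Braf and Nf1 were named after their values were seen. Likeness used log2(CPM + 0.5) and genes of mean log2 CPM of at least 2. The Dusp6 and Spry4 profiles were chosen with their values known. Alternatives were upper-quartile scaling, library totals, DESeq2 1.42.0, no low-count filter, fits of 2 groups, a replicate block, keeping the first of differing rows, and leaving out each library.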

Additional observations from a re-analysis of the deposited data

How the results depend on the processing

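No result that passed in the main fit or in an alternative changed direction, and the 10 genes' calls held in most fits. Differences that passed in neither could change sign, as that of Spred1 did. For LITAF against H/R, 6 of the 10 passed, 7 in the fit of these 2 groups alone, and 4 to 6 with each of the 12 libraries left out (4 without H/R library 3, where Dusp1 and Spry1 lost their call). Dusp5, Dusp6, Trib1 and Spry2 passed in all 20 alternatives. Against control, 6 passed for both groups with any library left out. The count of all genes called in LITAF against H/R depended on the fit: 556 became 902 with DESeq2, 1098 in the fit of the 2 groups alone, 873 with the replicate block, and 887 with the replicate block in the fit of the 2 groups (chosen after seeing the data). With a library left out it ran from 244 to 1285: 272, 279, 244 and 365 without H/R libraries 1 to 4, and 1285, 322 and 244 without LITAF libraries 1, 3 and 4. The cause was not tested. The replicate block over all 12 libraries changed no call of the 10 genes, and same-numbered H/R and LITAF libraries correlated at 0.09 to 0.26. Of the 21 ratio tests 14 passed, and 0 to 15 with a library left out; without H/R library 1, or LITAF library 2, 3 or 4, none passed, since 4 against 3 cannot go below p = 0.0286 and too few tests reached that exact permutation value for the adjusted p to fall under the threshold. Dusp4 was limited by depth.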

Other observations

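In none of the 30 groups of 4 libraries (10 genes in 3 groups) did a single library stand apart by Dixon's test at its 95% limit. Among the 10 genes, Spred1 varied most within the LITAF group of those with at least 100 reads in each LITAF library. Its order over the 4 libraries, 35.4, 27.0, 23.0 and 16.8 CPM in libraries 1, 3, 4 and 2, was that of Litaf itself, at 2691, 2532, 2120 and 2008 CPM. This order was noticed after the values were seen and is given as values only. A wide spread in the LITAF group was not particular to Spred1. Of genes in the other lists, Braf and Nf1 had coefficients of variation of 34.3% and 31.4% there. Others varied little in that group, such as Errfi1 (2.56%) and Ptpn11 (3.41%). Any relation of Spred1 to the level of Litaf was not tested.

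Egr1 and Dusp1 ended at levels that the test did not separate from control in the LITAF group (Egr1 log2 -0.15 ± 0.11, adjusted p = 0.228 by edgeR's test). Etv5, an ETS factor gene induced by ERK and named here after its values were seen, went from 34.4 ± 6.83 CPM in control to 47.3 ± 2.38 in the H/R group and 78.6 ± 2.82 in the LITAF group (SD, n = 4). It rose in both steps, by log2 0.46 ± 0.13 (adjusted p = 0.00507) and 0.73 ± 0.13 (adjusted p = 0.00273, both edgeR).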
